A study of Mus musculus with 7 samples.

Results

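The 10 genes described here, Hspa5, Hsp90b1, Pdia4, Pdia6, Sdf2l1, Creld2, Manf, Xbp1, Ddit3 and Dnajb9, encode chaperones of the endoplasmic reticulum (ER) and factors of the unfolded protein response. They were taken by symbol from the 32285 genes of the deposited feature lists, and all 10 were found. They were measured by single-cell RNA sequencing in LSK cells, a mouse bone marrow fraction that lacks lineage markers and carries Sca-1 and cKit on its surface, where blood stem cells and early progenitors are sorted. There were 3 libraries labelled B4galt1 knockout (KO1 to KO3; genotype 129S1/C57Bl/6, B4-/-) and 4 labelled wild type (WT1 to WT4; 129S1/C57Bl/6), which share the mixed strain background. B4galt1 encodes a Golgi enzyme that adds galactose to glycans. The design text calls the mice full knockouts. The labels give no treatment, age or allele structure, and do not say whether each library came from 1 animal, so p-values measure only the spread between these samples, which may be technical.

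Secreted and membrane proteins enter the ER unfolded and are folded there by Hspa5 (BiP) and Hsp90b1 (GRP94), with disulfide bonds set by the isomerases Pdia4 and Pdia6. When unfolded protein builds up, 3 sensors in the ER membrane respond: IRE1, which splices Xbp1 RNA into the form that makes an active transcription factor; PERK, which slows translation and raises Atf4 and then Ddit3 (CHOP); and ATF6, which is cut in the Golgi and moves to the nucleus. Cells that fill granules or secrete antibody carry a large ER, and progenitors of granulocytes make myeloperoxidase and elastase through it. UMI counts from the ends of transcripts cannot tell spliced from unspliced Xbp1, so they give the RNA level and not the activity of the pathway.

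The promoters of several members hold the ER stress response element (ERSE), the motif that ATF6 and XBP1 are known to bind together with the CCAAT-binding factor NF-Y. RefSeq promoter windows of GRCm38.p6 were matched for 9 members, and the 250 bases before each start were searched on both strands for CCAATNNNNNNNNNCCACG. The motif stood in 4 of the 9 windows, those of Hspa5, Hsp90b1, Pdia6 and Creld2, and in 37 of all 32851 promoter windows (0.113%). The sites are printed because these 4 windows share the motif. They run 5′ to 3′ on the strand of the gene, with the outer parts of the motif in capitals and 5 bases on either side. Where the motif lies on the other strand these parts read as CGTGG and ATTGG.
Hspa5, chr2:34772020-34772048, plus strand, motif 65 to 47 bases before the start: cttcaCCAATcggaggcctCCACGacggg
Hsp90b1, chr10:86705633-86705661, minus strand, motif 212 to 194 bases before the start: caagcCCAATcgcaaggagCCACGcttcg
Hsp90b1, chr10:86705528-86705556, minus strand, motif 107 to 89 bases before the start: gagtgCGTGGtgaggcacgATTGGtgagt
Pdia6, chr12:17266486-17266514, plus strand, motif 98 to 80 bases before the start: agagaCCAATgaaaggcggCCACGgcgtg
Creld2, chr15:88819515-88819543, plus strand, motif 126 to 108 bases before the start: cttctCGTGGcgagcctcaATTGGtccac
The core of the element bound by XBP1 alone, TGACGTG, was found in the Hspa5 window (chr2:34771928-34771944: agcaaTGACGTGagttg, core in capitals) and in 1.65% of all windows. The related element ATTGGNCCACG (0.0304% of windows) and the ATF4 core TTGCATCA (0.792%) were in none of the 9 member windows. The Hspa5 ERSE lies before the RefSeq start but inside the gene as the GENCODE annotation of the same build draws it, from 34771970. These are letter matches, not measured binding.

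Depth was 14970791 to 89747946 UMIs per library, and 1172 to 8862 barcodes per library passed the cell filter, with median depths of 8046 to 11083.5 UMIs per cell. The libraries carry 2 sets of barcode sequences: KO1, KO2, WT1, WT2 and WT3 use one (list A) and KO3 and WT4 the other (list B), and KO3 and WT4 shared 68 kept barcodes. List B libraries kept 96.2% or more of their barcodes, list A libraries 32.4% to 49.9%. B4galt1 RNA stood at 53.2, 53.1 and 31.8 CPM in KO1 to KO3 and at 54.1, 60.8, 52.1 and 39.5 CPM in WT1 to WT4, so its RNA level does not separate the labels; whether the UMIs lie in the deleted part is not given in the sources used here. Levels below are CPM values, the summed UMIs of a gene scaled to the library's total UMIs and its TMM factor. Kit stood at 159 to 285 CPM and Ly6a, which encodes Sca-1, at 14.6 to 55.9 CPM.

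The 7 folding genes and Xbp1 had higher means in the summed LSK cells of the knockout label, Ddit3 and Dnajb9 had nearly equal means, and no member passed the edgeR test (0 of 10 at an adjusted p under 0.05, with 1.11% of 14608 genes called). These 8 members had an unadjusted edgeR p under 0.05, as had 2792 of the 14608 genes. Hspa5, the main ER chaperone of the Hsp70 family, stood at 703, 674 and 316 CPM in KO1, KO2 and KO3 and at 558, 462, 296 and 204 CPM in WT1 to WT4. The groups overlapped because KO3, from list B, lay below WT1 and WT2. Within list A both knockout-labelled libraries lay above all 3 wild-type-labelled ones, and within list B the ratio of KO3 to WT4 was 1.55. With the barcode list in the edgeR fit, the log2 difference was 0.64 ± 0.21 (SE, 3 against 4 libraries; adjusted p = 0.156).

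Hsp90b1, the ER member of the Hsp90 family, stood at 588, 434 and 239 CPM in KO1 to KO3 and at 376, 288, 235 and 186 CPM in WT1 to WT4. It had the same layout as Hspa5: overlap between the labels, and separation within each list. Its difference was 0.65 ± 0.20 (edgeR adjusted p = 0.139). The disulfide isomerase Pdia4 stood at 105, 72.4 and 66.2 CPM against 66.1, 46.2, 43.5 and 51.4 CPM, with KO3 just above WT1 (log2 difference 0.65 ± 0.19, edgeR adjusted p = 0.122). Pdia6, of the same family, stood at 374, 244 and 219 CPM against 206, 134, 128 and 178 CPM (0.79 ± 0.23, edgeR adjusted p = 0.127). For neither isomerase did the label groups overlap.

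Sdf2l1, a partner of BiP and its co-chaperones, had the largest estimate and the widest spread of the 10. It stood at 176, 72.4 and 90.8 CPM in KO1 to KO3 and at 62.7, 24.7, 24.2 and 53.2 CPM in WT1 to WT4 (log2 difference 1.46 ± 0.49, edgeR adjusted p = 0.205). Creld2, a secreted ER stress protein with isomerase activity, stood at 40.4, 29.5 and 31.0 CPM against 25.9, 18.0, 15.8 and 24.8 CPM (0.67 ± 0.19, edgeR adjusted p = 0.121). Manf, an ER protein that binds BiP and can be secreted, stood at 310.2, 189 and 215 CPM against 187, 119, 108 and 147 CPM (0.76 ± 0.23, edgeR adjusted p = 0.133). The label groups did not overlap for any of these 3 genes, though KO2 exceeded WT1 by little in Manf.

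Xbp1, the transcription factor downstream of IRE1, stood at 77.0, 44.6 and 56.8 CPM in KO1 to KO3 and at 40.8, 36.1, 31.2 and 37.4 CPM in WT1 to WT4. The groups did not overlap, and the difference of 0.71 ± 0.18 had the lowest adjusted p of the 10 (0.0995, edgeR). Ddit3, the proapoptotic factor downstream of PERK, stood at 13.5, 11.6 and 20.7 CPM against 12.2, 8.94, 14.1 and 25.6 CPM. Dnajb9, a co-chaperone that brings BiP to IRE1, stood at 74.6, 67.2 and 65.9 CPM against 80.1, 69.4, 54.9 and 68.6 CPM. For both the groups overlapped, with differences of -0.03 ± 0.17 and 0.02 ± 0.14 whose sign turned under other settings (edgeR adjusted p = 0.951 and 0.945). Ddit3 was highest in the list B library of each label, the reverse of Hspa5 and Hsp90b1.

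In all, 6 members did not overlap between the labels, all higher in the knockout label; of the 14608 genes 5.74% did not overlap and 2.68% did so with the knockout label higher. DESeq2 called 7 of the 10 members (all but Sdf2l1, Ddit3 and Dnajb9; adjusted p = 0.0178 to 0.0451), where it called 5.86% of genes. In edgeR without the covariate for the barcode list, the adjusted p of each of these 7 was 0.810 or more. Xbp1 was also called by edgeR without KO2 (adjusted p = 0.0405) and without the gene filter (adjusted p = 0.0255), in a range of 0.0178 to 0.810 over its 17 alternatives. In list A alone edgeR called 0 members. Without KO1 the differences were smaller, 0.42 for Xbp1 and Pdia4, 0.50 for Pdia6, 0.48 for Manf and 0.88 for Sdf2l1, each by more than 1.5 times.

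**Figure D1:**
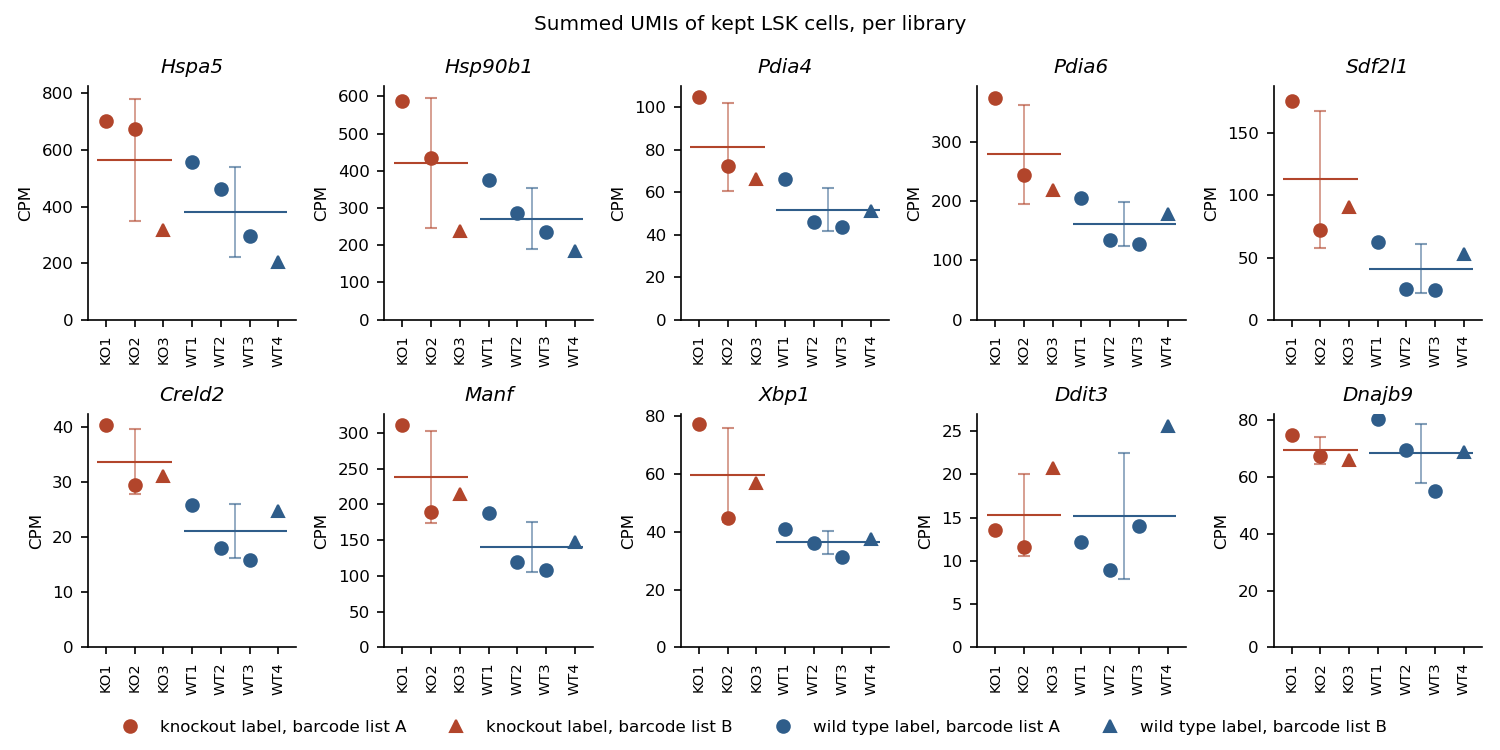
Level of each member (CPM of summed UMIs, axis from 0) in the 7 libraries; color gives the label, shape the barcode list, horizontal lines the label means and bars the SD. The knockout-labelled libraries lie above all wild-type-labelled ones for Pdia4, Pdia6, Sdf2l1, Creld2, Manf and Xbp1, and Ddit3 and Dnajb9 overlap throughout.

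The label groups also differed in which cells they held. Cells were assigned to states by counting marker genes with a UMI, none of them a member: the stem gate took cells with at least 4 of 12 stem cell markers such as Procr, Hlf and Fgd5; the granule gate cells with at least 4 of 7 genes of primary granules and their progenitors (Mpo, Elane, Prtn3, Ctsg, Ms4a3, Fcnb, Clec12a); the lymphoid gate at least 3 of 8 such as Dntt and Il7r; the megakaryocyte gate at least 2 of 9 such as Pf4 and Itga2b; and the Flt3 gate cells with Flt3 and at least 4 of 6 early progenitor markers and no lineage gate. Cells meeting gates of 2 lineages were set apart, save that granule came before monocyte and megakaryocyte before stem. The granule gate then held 34.5%, 31.7% and 13.7% of kept cells in KO1 to KO3 and 8.36%, 4.01%, 2.13% and 5.69% in WT1 to WT4. The groups did not overlap (means 26.6% ± 11.3 and 5.05% ± 2.64 (SD); two-sided exact permutation p = 0.0571, which is as low as the 35 splits can go). Granule-gate cells gave 58.7%, 59.7% and 23.4% of all Hspa5 UMIs in KO1 to KO3, and 21.1%, 12.5%, 4.25% and 10.9% in WT1 to WT4. For Sdf2l1 these shares were 66.3%, 71.6% and 31.7% against 30.1%, 25.8%, 8.35% and 23.2%. The same cells gave 49.1%, 47.5% and 19.5% of the UMIs of all genes in KO1 to KO3, and 15.1%, 7.45%, 2.98% and 7.96% in WT1 to WT4. In a sum over all cells, more cells of a type and more RNA per cell cannot be told apart.

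Without the cells assigned to the myeloid, dendritic and mature lymphoid gates, the differences of the 7 folding genes and Xbp1 were smaller, 0.29 (Hsp90b1) to 0.48 (Xbp1) for 7 of the 8 and 1.13 for Sdf2l1, with edgeR adjusted p from 0.537 to 0.765. Cells meeting gates of 2 lineages stayed in this sum, among them cells that met the granule gate. That gate was met by 1586, 660 and 1549 cells in KO1 to KO3, of which 1061, 546 and 939 were assigned to it. In WT1 to WT4 it was met by 160, 111, 91 and 994, of which 104, 47, 32 and 504 were assigned. The part of the cells left in was not tested. Within the granule gate these 8 genes differed by 0.25 (Creld2) to 0.51 (Sdf2l1) on the log2 scale between the labels, and Xbp1 by 0.47 ± 0.19. Within the stem gate they differed by -0.18 (Pdia6) to 0.20 (Xbp1), within the Flt3 gate by -0.11 (Hsp90b1) to 0.31 (Sdf2l1) and within the lymphoid gate by -0.22 (Pdia6) to 0.14 (Sdf2l1). No member was called in any of the 4 gates (edgeR; 0.109% of genes called in the stem gate, 0.278% in the Flt3 gate, 0.192% in the lymphoid gate and 0.00814% in the granule gate). At an unadjusted edgeR p under 0.05 there were 2 members in the granule gate, Manf and Xbp1, beside 501 of 12286 genes. The other 3 gates had 0 members, beside 556 of 11948 genes (stem), 544 of 11162 (Flt3) and 544 of 10432 (lymphoid). DESeq2 called 0 members in any of the 4 gates. Single libraries moved these estimates. Without KO1 the 8 granule-gate differences ran from -0.0017 to 0.32 (median 0.17 in place of 0.33), and without WT3 their median was 0.22, each with 0 members at an unadjusted p under 0.05. In list A alone all 8 estimates were below 0 in the lymphoid gate (-0.64 to -0.061) and in the stem gate (-0.54 to -0.032), with none called. At an unadjusted edgeR p under 0.05 the lymphoid gate had 2 of these 8 and 3 of the 10 members, beside 874 of 10391 genes. The stem gate had 0 members, beside 607 of 12056 genes. The lymphoid and stem estimates were all below 0 without KO3 and without WT4 too. Those fits compare the labels within the same list A libraries and add no separate result.

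The label difference of the 7 folding genes and Xbp1 was estimated as larger in the granule gate than in the stem gate, by 0.24 (Xbp1) to 0.51 (Pdia6), and none passed the edgeR test of that difference (adjusted p = 0.557 to 0.996; 0 of 11674 genes called, 0%, and 657 at an unadjusted p under 0.05, 5 of them members). Of these 5, Hsp90b1 differed by 0.47 ± 0.14, Pdia6 by 0.51 ± 0.17, Manf by 0.44 ± 0.15, Creld2 by 0.48 ± 0.20 and Hspa5 by 0.24 ± 0.12. DESeq2 called 0 members. When either list B library, KO3 or WT4, was left out, 4 members were called, where 0.683% and 0.728% of genes were: Sdf2l1 (1.46 ± 0.27 in both fits), Pdia6, Manf and Hsp90b1. These fits are no separate results, since each compares the labels within the list A libraries alone. The list B library that stays has no partner of the other label. Without KO1 the 8 estimates ran from -0.19 to 0.36, with a median of 0.26 in place of 0.42 and 0 called. Between the lymphoid and stem gates no member was called (edgeR, 0.143% of genes called; 0 members at an unadjusted p under 0.05 in edgeR or DESeq2).

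**Figure D2:**
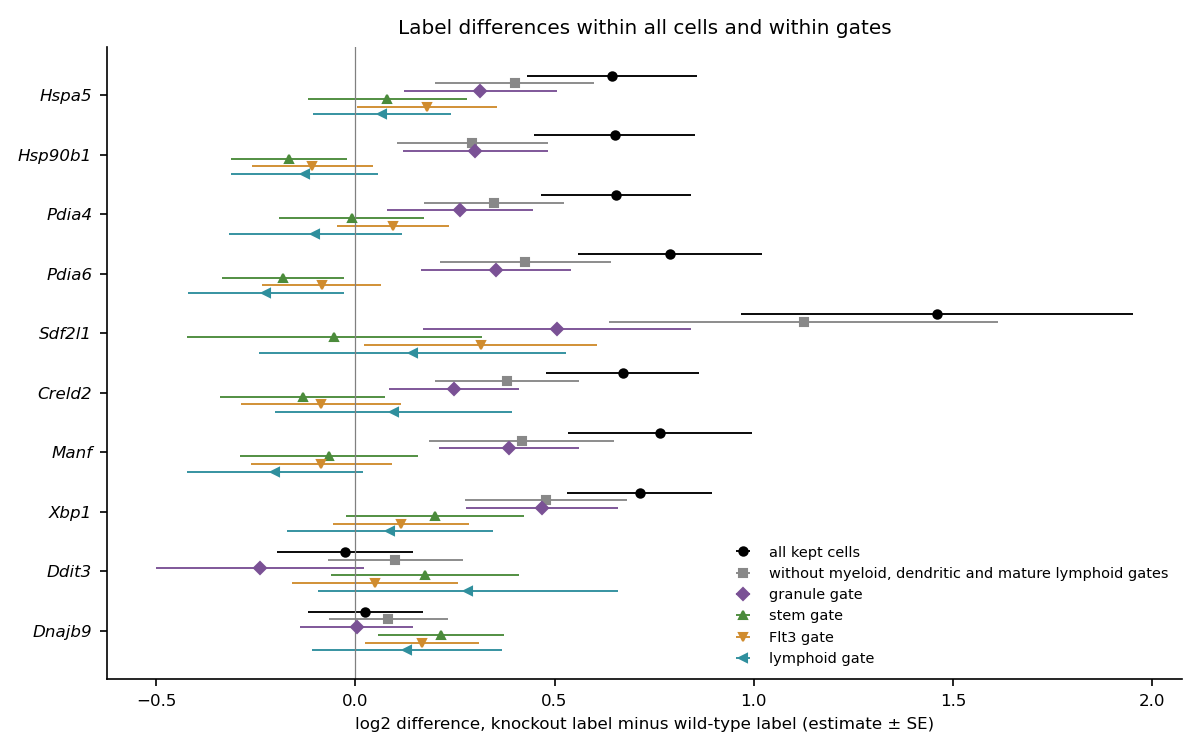
Difference of each member between the labels (log2, knockout minus wild type, estimate ± SE from edgeR with 3 against 4 libraries) over all kept cells, without 3 kinds of gate, and within the granule, stem, Flt3 and lymphoid gates. The estimates over all cells are 0.64 to 1.46 for the 8 upper genes, those in the granule gate 0.25 to 0.51, and those in the stem, Flt3 and lymphoid gates lie on both sides of 0.

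In the granule gate against the stem gate, tested over the 7 libraries with the library as a block, all 10 members were called, 8 higher and 2 lower; the background was high, with 70.2% of 11941 genes called, 32.1% higher and 38.2% lower. The median log2 difference of the 10 members was 1.15, beside -0.06 over all genes tested. The same 10 were called in each of the 13 other settings run for this comparison on all cells, beside 39.4% (no gene filter) to 69.2% (without WT3) of genes. Granule-gate cells had median depths of 13836 to 19675 UMIs and stem-gate cells of 6292 to 9894, so depth moves with the gate; with gates set on cells thinned to 3000 UMIs all 10 were called as well.

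Sdf2l1 had the largest difference. It stood at 12.8 CPM in the lowest, 20.7 in the median and 41.8 in the highest of the 7 stem-gate sums, and at 71.0, 130.3 and 246 CPM in the granule gate, with no overlap (log2 difference 2.54 ± 0.19, edgeR adjusted p = 1.0e-11). Within libraries the granule gate was 3.43 to 13.9 times the stem gate, highest in KO1 and lowest in WT3. Pdia6 rose from 91.3, 133 and 160.1 CPM to 217, 332 and 494 CPM (1.39 ± 0.12, edgeR adjusted p = 9.8e-11) and Pdia4 from 32.0, 44.9 and 55.3 CPM to 57.9, 106 and 134 CPM (1.17 ± 0.09). The ranges of both isomerases did not overlap.

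Among the chaperones, Hsp90b1 rose from 158, 208 and 273 CPM (lowest, median and highest) in the stem gate to 293, 560.2 and 774 CPM in the granule gate (1.27 ± 0.11). Hspa5 rose from 194, 348 and 481 CPM to 313, 814 and 871 CPM (0.96 ± 0.07, edgeR adjusted p = 8.6e-16). The Hspa5 ranges overlapped across libraries, with the granule gates of KO3, WT3 and WT4 below the stem gate of WT1, but the granule gate was higher in 7 of 7 libraries, by 1.61 to 2.5 times. Manf rose from 66.8, 112 and 160.1 CPM to 206, 260.3 and 405 CPM (1.32 ± 0.11), and Creld2 from 13.2, 16.9 and 23.7 CPM to 31.5, 40.7 and 51.7 CPM (1.12 ± 0.14). Neither overlapped.

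Xbp1 rose least of the 8, from 18.0, 36.2 and 54.7 CPM to 29.9, 57.5 and 93.9 CPM (0.81 ± 0.11, edgeR adjusted p = 8.4e-08). It was higher in 7 of 7 libraries, by 1.05 times in WT3 to 3.25 times in KO2. Ddit3 and Dnajb9 fell. Ddit3 stood at 11.1, 14.3 and 30.7 CPM in the stem gate and at 5.88, 15.8 and 18.7 CPM in the granule gate, lower in 5 of 7 libraries (log2 difference -0.67 ± 0.13, edgeR adjusted p = 8.9e-06). Dnajb9 stood at 53.8, 76.1 and 92.1 CPM against 52.0, 58.5 and 65.2 CPM, lower in 6 of 7 (-0.49 ± 0.09, edgeR adjusted p = 1.3e-05). The libraries that went the other way were WT1 and WT3 for Ddit3 and WT3 for Dnajb9, each with at most 104 granule-gate cells. Ddit3 had 31 UMIs in the granule gate of WT1 and 10 in that of WT3. WT2, with 47 granule-gate cells and 6 Ddit3 UMIs in them, was lower for both genes.

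**Figure D3:**
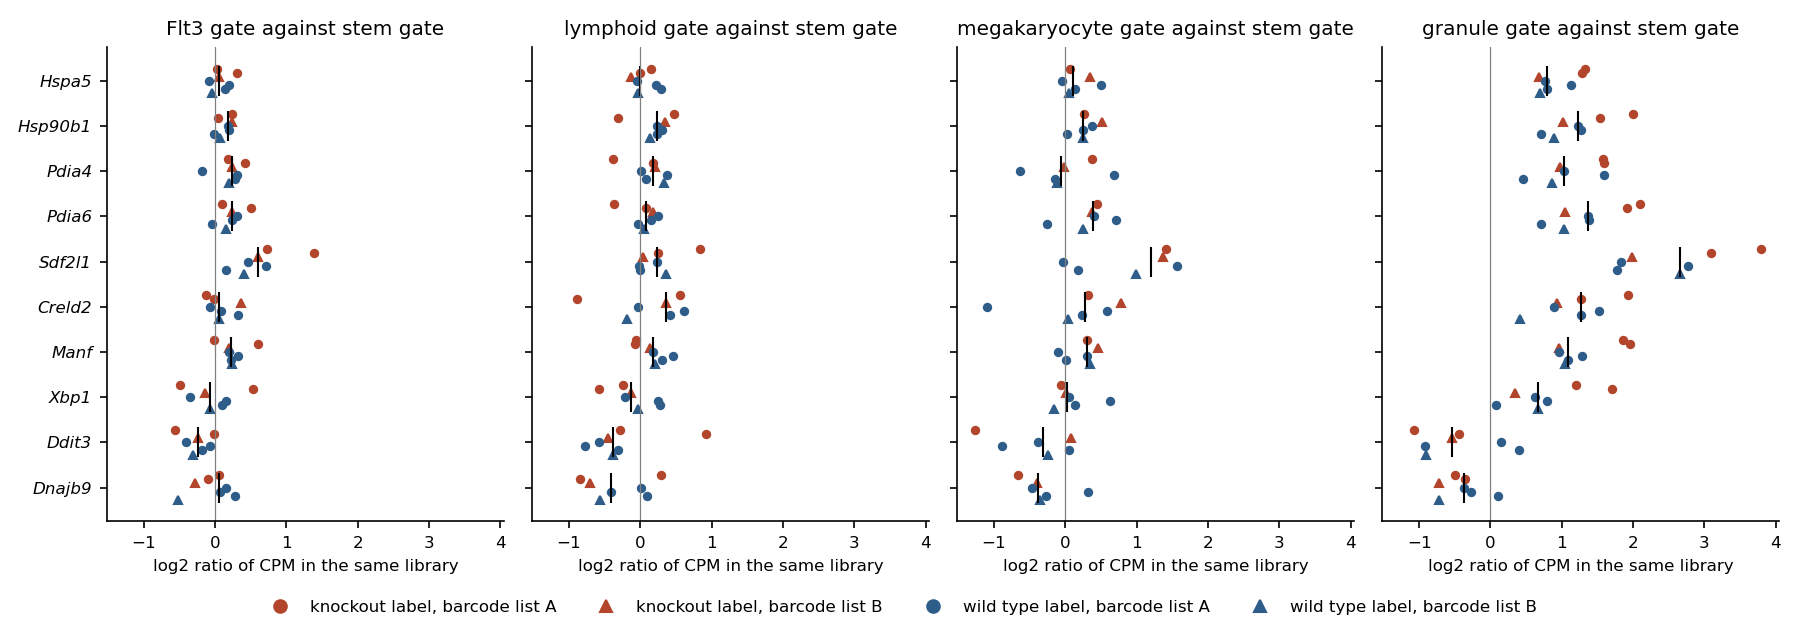
Level of each member in 4 gates as a log2 ratio to the stem gate of the same library; points are libraries, color gives the label, shape the barcode list, black ticks the median over libraries. The granule gate lies right of 0 in 7 of 7 libraries for 8 members, while the Flt3, lymphoid and megakaryocyte gates lie closer to 0.

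Over the 7 folding genes and Xbp1 the median difference from the stem gate was 1.22 in the granule gate, 0.16 in the Flt3 gate, 0.23 in the lymphoid gate and 0.33 in the megakaryocyte gate. In the Flt3 gate no member was called (edgeR, 25.6% of genes called). At an unadjusted edgeR p under 0.05 there were 3 members, beside 4387 of 11941 genes. DESeq2 called 1 member there (24.8% of genes), and with 1 marker more edgeR called 7 (38.4% of genes). In the lymphoid gate Ddit3 (-0.39 ± 0.14, edgeR adjusted p = 0.0283) and Dnajb9 (-0.30 ± 0.10, adjusted p = 0.0184) were lower and none was higher, where 35.8% of genes were called and 17.7% were lower. Both lymphoid calls were lost without KO3 and without WT4, and 5 members were called without KO1 (37.5% of genes). In the megakaryocyte gate, with 6 libraries, Sdf2l1 (1.10 ± 0.22, edgeR adjusted p = 0.0013) and Hspa5 (0.22 ± 0.08, adjusted p = 0.0426) were higher, where 17.3% of genes were called and 8.65% were higher (8.6% lower). Without KO1 there were 6 calls in the megakaryocyte gate (18% of genes), and 1 without KO2 (16%) and without KO3 (6.22%). These values depend on how the megakaryocyte gate is set. With gates on thinned cells the median over the 8 genes was 1.02 and 7 members were called (26.1% of genes), with 1 marker more the median was 0.63 and 7 were called (29.9%), and in list A alone 0 were called (1.95%). Sdf2l1 stood there at 47.0 CPM in KO1, 109 in KO3, 35.7 in WT1, 39.0 in WT2, 23.4 in WT3 and 55.1 in WT4. It lay above the stem gate of the same library in all of these except WT1.

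Ordered by their mean in the 6 libraries that have all 5 gates, 8 members were highest in the granule gate, and the step to the next gate exceeded the SD of the paired differences for each of them, from 0.51 ± 0.47 (SD, log2, n = 6) for Xbp1 to 1.53 ± 0.60 for Sdf2l1. The stem gate came last for 7 of these 8, and the Flt3 gate for Xbp1. Below the granule gate most neighbours were within their spread: for Hspa5 the megakaryocyte, lymphoid, Flt3 and stem gates followed at steps of 0.10 ± 0.23, 0.03 ± 0.11 and 0.05 ± 0.11. For Ddit3 the stem gate came first, 0.28 ± 0.17 above the Flt3 gate, and the granule gate last, with the lower 3 steps within their spread. For Dnajb9 the order was stem, Flt3, lymphoid, megakaryocyte and granule, and no single step exceeded its spread.

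States with 20 or more cells in 3 libraries were not tested, and their values are given alone. The monocyte gate had 20 or more cells in KO1, KO2 and KO3 alone, and Sdf2l1 there was 2.68, 3.69 and 2.60 times the stem gate, while Ddit3 was 0.35, 0.61 and 0.63 times. In the dendritic gate (KO1, KO3 and WT4) Hspa5 was 1.08, 1.24 and 1.16 times the stem gate and Xbp1 0.95, 0.91 and 0.97 times. Antibody-secreting plasma cells are known for very high Xbp1 and chaperone levels. At most 28 cells of a library (WT4) met the plasma gate, and at most 7 after cells meeting gates of 2 lineages were set apart. Their markers summed to 6.68 to 11.0 CPM in the list A libraries, to 104 CPM in KO3 and to 376 CPM in WT4, mostly Igkc. The 2 list B libraries had the lowest Hspa5 and Hsp90b1 of their labels, but not the lowest Xbp1, Sdf2l1, Creld2 or Manf. Xbp1 stood at 56.8 CPM in KO3 beside 44.6 in KO2, and at 37.4 in WT4 beside 36.1 in WT2 and 31.2 in WT3. Pdia4 and Pdia6 were lowest of their label in KO3 but not in WT4. The part of plasma cells in these levels was not tested.

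Cells were also ordered by how many markers they showed after each was thinned to 3000 UMIs, as a description without a test, added after the gates had been compared. Relative to cells of the same library with 0 granule markers, Hspa5 was 0.96 times at 2 markers (median, range 0.83 to 1.05, 7 libraries), 1.30 times at 4 (1.14 to 1.78, 5 libraries) and 2.47 times at 6 or 7 (1.97 to 2.82, 4 libraries). Sdf2l1 was 1.39, 2.03 and 9.61 times at these steps. Xbp1 stayed at 0.89 times at 3 markers (0.76 to 1.78), then stood at 2.29 times at 5 and 3.08 times at 6 or 7. Pdia6 stood higher at fewer markers, at 1.38 times at 3 and 1.90 times at 4, and was not alone in this. At 3 markers Sdf2l1 stood at 2.00 times, Creld2 at 1.38, Hsp90b1 at 1.31, Pdia4 at 1.24, Manf at 1.23 and Hspa5 at 1.09 times. The steps at 5 and at 6 or 7 markers hold KO1, KO2, KO3 and WT4 alone, so medians across steps do not cover the same libraries. Ddit3 went the other way, at 0.82, 0.64 and 0.51 times at 2, 4 and 6 or 7 markers, as did Dnajb9 with 0.80, 0.61 and 0.62 times.

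Along the number of stem markers the order turned round. In cells with 5 or more stem markers Ddit3 was 1.79 times (1.46 to 3.33) and Dnajb9 1.87 times (0.78 to 2.58) its level in cells with 0. Sdf2l1 was 0.18 times (0.05 to 0.42), Manf 0.45 times (0.33 to 0.74) and Hspa5 0.79 times (0.54 to 0.85). Xbp1, at 0.88 times (0.27 to 1.09), straddled 1.

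**Figure D4:**
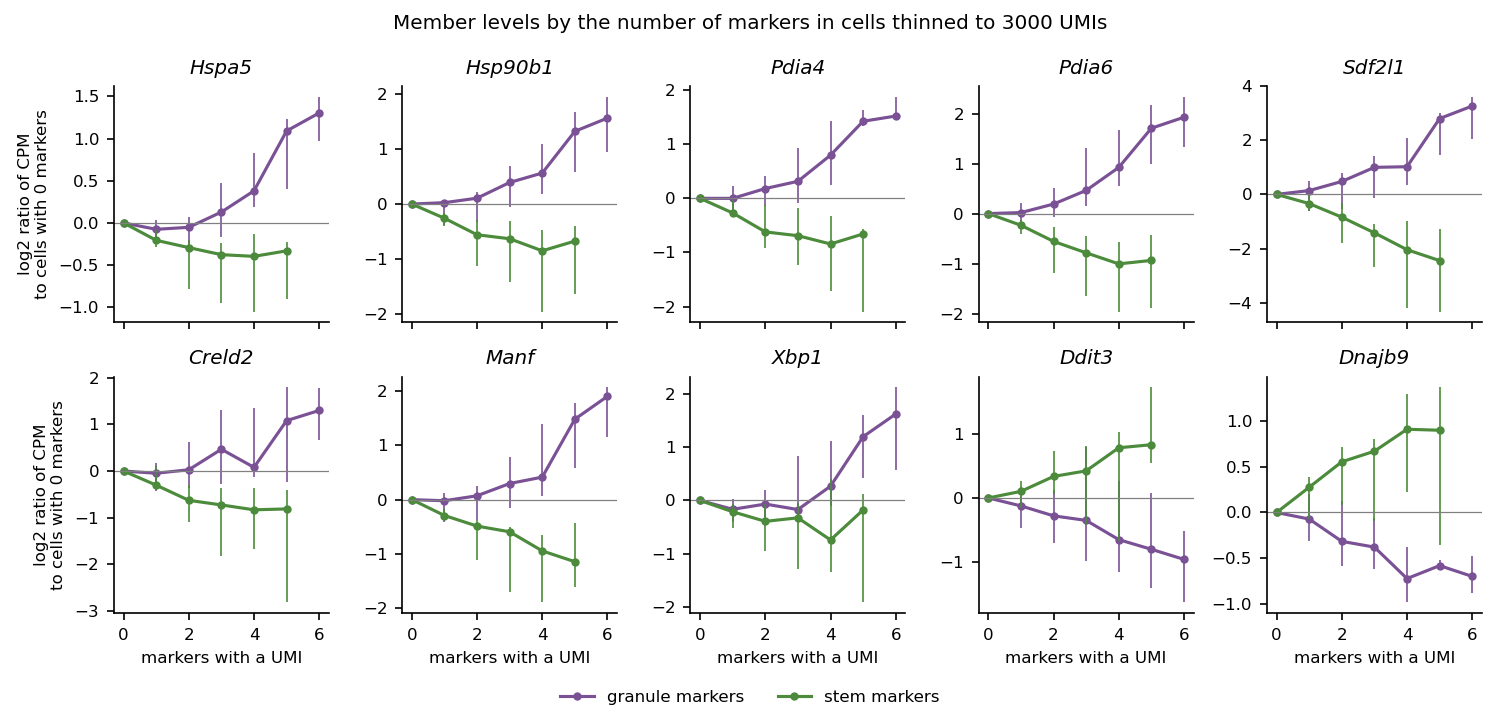
Level of each member by the number of granule markers (0 to 6 or more) or stem markers (0 to 5 or more) with a UMI in cells thinned to 3000 UMIs, as a log2 ratio to cells of the same library with 0 of those markers; points are medians over libraries, lines the range. At 6 or more granule markers, reached in 4 libraries, the 7 folding genes and Xbp1 have medians above 0 and Ddit3 and Dnajb9 below 0; at 5 or more stem markers Ddit3 and Dnajb9 lie above 0 and Sdf2l1 lowest.

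The gates also differed in markers of the cell cycle. Cells with a UMI of at least 5 of 16 G2/M markers made up 56.3% to 80.9% of the granule gate and 12.7% to 30.0% of the stem gate. With each cell thinned to 3000 UMIs (15 granule-gate and 92 stem-gate cells were shallower and left out), these shares were 31.0% to 53.2% and 7.95% to 19.6%, still without overlap. Stem-gate cells were therefore split into those with at least 5 G2/M markers (899 cells), those with at least 7 of 12 S markers (801) and those with neither (2102; at most 3 S and 1 G2/M markers), a comparison added after the data had been seen. Cells with neither held a mean of 4380 to 6951 UMIs and G2/M cells 11269 to 17474, so the split follows depth too, whose part was not tested. Against neither, S cells had 7 of 10 members called (5 higher and 2 lower; edgeR called 43.9% of genes, 20.8% higher and 23.1% lower). G2/M cells had 9 members called (5 higher and 4 lower; 52.9% of genes called, 24.5% higher and 28.4% lower).

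Sdf2l1 stood at 1.42, 8.29 and 20.8 CPM (lowest, median and highest of 7 libraries) in stem-gate cells with neither phase, at 20.1, 36.4 and 72.2 CPM in S cells and at 16.1, 28.1 and 67.2 CPM in G2/M cells. It was higher in both phases in 7 of 7 libraries (S 2.03 ± 0.15, G2/M 1.80 ± 0.15; edgeR adjusted p = 2.1e-20 and 8.6e-19). Dnajb9 moved the other way, at 73.8, 114 and 138 CPM with neither, 53.9, 80.7 and 85.1 CPM in S and 46.9, 50.3 and 64.4 CPM in G2/M (S -0.62 ± 0.09, G2/M -1.16 ± 0.09). Its highest G2/M library lay below its lowest library with neither. Ddit3 fell in both phases (S -0.84 ± 0.16, G2/M -0.81 ± 0.14).

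Xbp1 and Hspa5 parted from the other folding genes here. Xbp1 stood at 24.0, 42.7 and 77.1 CPM with neither and at 14.3, 28.4 and 35.2 CPM in G2/M (-0.78 ± 0.12, edgeR adjusted p = 1.4e-07), and in S its difference of -0.28 ± 0.13 was not called. Hspa5 stood at 227, 388 and 589 CPM with neither and at 172, 288 and 426 CPM in G2/M (-0.30 ± 0.07, edgeR adjusted p = 7.8e-05), and its S difference was 0.07 ± 0.07. Hsp90b1 (0.49 ± 0.08), Pdia6 (0.50 ± 0.08), Creld2 (0.68 ± 0.16) and Manf (0.30 ± 0.08) were higher in G2/M, and Pdia4 was not called in either phase. In the Flt3 gate, split the same way, 6 members were higher and 1 lower in S cells (39.9% of genes called, 20.4% higher and 19.6% lower), and 5 were higher and 2 lower in G2/M cells (46.3% called, 23.1% higher and 23.2% lower). There Hspa5 was higher in S cells (0.27 ± 0.07) and at no difference in G2/M cells (0.00 ± 0.07), and Xbp1 was again lower in G2/M cells (-0.71 ± 0.14).

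**Figure D5:**
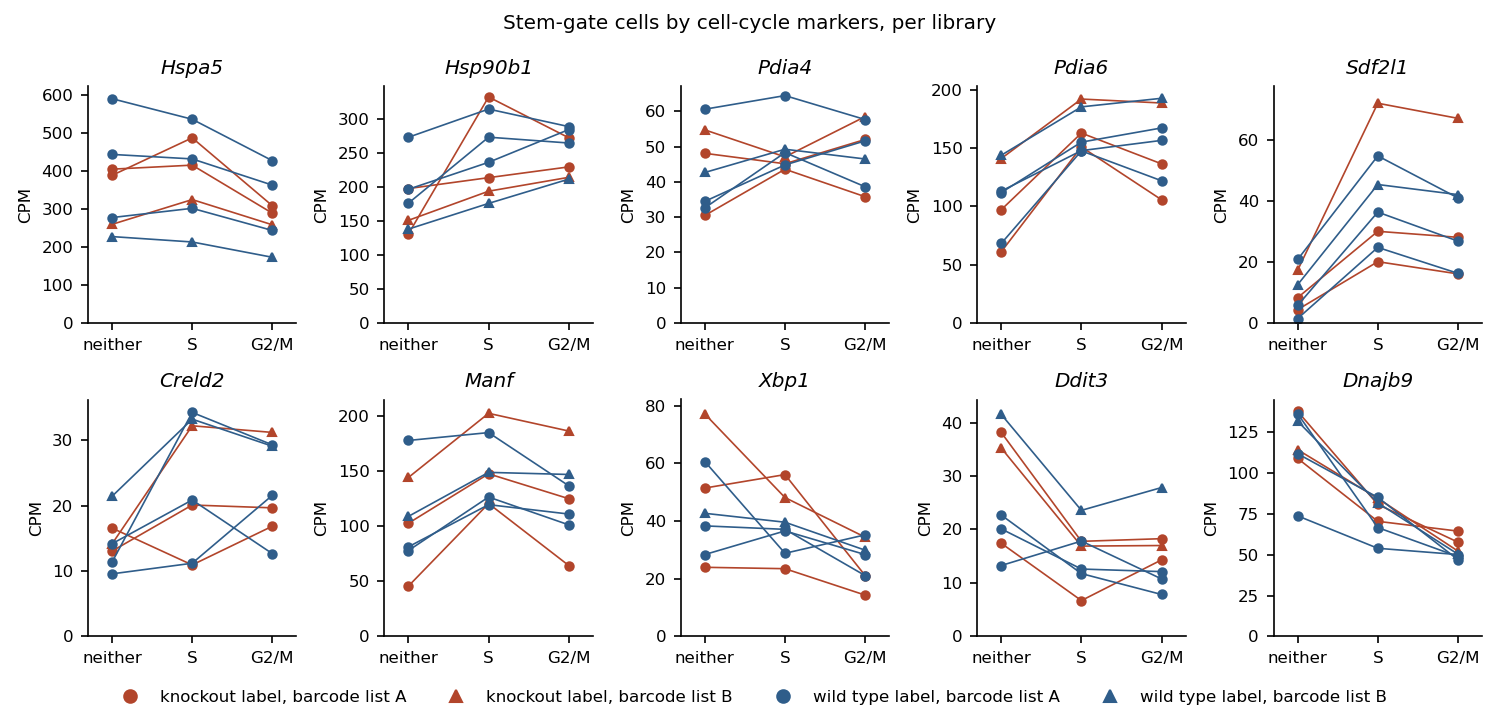
Level of each member (CPM, axis from 0) in stem-gate cells with markers of neither phase, of S and of G2/M; lines join the 3 sums of a library, color gives the label and shape the barcode list. Sdf2l1 is lowest with neither phase in every library, and Dnajb9 falls from neither to G2/M in every library.

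When the granule and stem gates were compared among G2/M cells alone, the 7 folding genes and Xbp1 had differences of 0.85 (Creld2) to 2.22 (Sdf2l1), each called by edgeR (49.5% of genes called, 24.5% higher and 25% lower). Xbp1 differed by 1.25 ± 0.15 there, against 0.81 over all cells, and Hspa5 by 1.25 ± 0.11, against 0.96. The remaining calls were lost: Ddit3 differed by -0.34 ± 0.20 (edgeR adjusted p = 0.157, in a range from 2.8e-06 over its alternatives) and Dnajb9 by 0.04 ± 0.11 (adjusted p = 0.793, in a range from 3.9e-06), with the opposite sign. With the Flt3 gate as the reference in place of the stem gate, the granule gate again had 8 members higher and 2 lower (58.2% of genes called, 26.9% higher and 31.3% lower). The lymphoid and megakaryocyte gates had none called (12.2% and 15.2% of genes called). At an unadjusted edgeR p under 0.05 each had 1 member, beside 2627 and 2996 of 11941 genes.

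Over 34 sums of 5 gates and 7 libraries, with log2 levels centred within libraries, the 7 folding genes and Xbp1 had pairwise Pearson r of 0.78 to 0.96. Ddit3 had r of -0.55 to -0.39 and Dnajb9 r of -0.42 to -0.17 with them, and Ddit3 and Dnajb9 had r = 0.25 with each other. The genes most like Hspa5 among 7183 of at least 20 CPM were Tomm5 (r = 0.96), Pdia3 (0.95), Lrrc59 (0.95), Ndufb9 (0.95) and Psma7 (0.95). Those most like Xbp1 were Guk1 (0.89), Eif3c (0.89), Arhgdia (0.88), 9130401M01Rik (0.88) and Pdia3 (0.87). Those most like Ddit3 were Traf3ip3 (0.70), Efcab14 (0.70), 2310001H17Rik (0.68), Setd1b (0.67) and Zup1 (0.67). These points share libraries and gates, and so are no independent samples.

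Other genes of the pathway are given for the granule gate against the stem gate (edgeR), where 32.1% of all genes were higher and 38.2% lower. Of 27 further ER folding and translocation genes, 25 were higher and 1 lower, with a median of 0.77; the 3 with the smallest p were Erp29 (1.33 ± 0.06), the translocon subunit Sec61b (1.28 ± 0.08) and the prolyl isomerase Ppib (0.77 ± 0.07). Of 15 genes of ER-associated degradation tested, 10 were higher and none lower, led by the mannosidase-like lectin Edem1 (1.44 ± 0.13), Selenos (1.20 ± 0.14) and Ube2g2 (0.66 ± 0.10). Of 7 sensors and their proteases tested, 2 were higher and 2 lower. Atf6b (1.11 ± 0.10) and Atf6 (0.40 ± 0.07) rose, and Mbtps2, a protease that cuts ATF6, fell (-0.36 ± 0.08).

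Of 17 genes downstream of PERK and Atf4, 8 were higher and 5 lower in the granule gate, beside 32.1% and 38.2% of all genes. Shmt2 (1.09 ± 0.08) and Phgdh (0.91 ± 0.07), enzymes of serine and one-carbon metabolism, rose, and Trib3, a pseudokinase induced by Ddit3, fell (-3.40 ± 0.27). Heat shock genes of the cytosol and mitochondria were higher for 9 of 11 and lower for none, led by Hspa8 (0.83 ± 0.06), Hspe1 (0.96 ± 0.08) and Hspd1 (0.96 ± 0.08). All 12 immediate early genes, which rise within minutes of handling or stimulation, were lower, led by Ier3 (-0.93 ± 0.08), Nr4a1 (-1.26 ± 0.12) and Jund (-0.98 ± 0.10). Their part in the member differences was not tested.

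By label in the LSK sums, 1 gene of these lists was called, Atf6b (0.64 ± 0.11, edgeR adjusted p = 0.0343), where 1.11% of all genes were. The median difference was 0.44 over the 27 ER folding genes, 0.28 over the 16 degradation genes, 0.06 over the 8 sensors, 0.25 over 18 PERK and Atf4 genes, 0.27 over the 12 heat shock genes and -0.08 over the 12 immediate early genes, beside 0.01 over all genes. The smallest p-values were those of Hyou1 (0.72 ± 0.17), Calr (0.96 ± 0.23) and P4hb (0.84 ± 0.20) among the folding genes, none called (edgeR adjusted p = 0.0791 to 0.0872). They were those of Selenos (0.75), Hspa13 (0.49) and Edem1 (0.64) for degradation, of Atf6 (0.25) and Mbtps2 (-0.09) after Atf6b, and of Shmt2 (0.52), Slc3a2 (0.43) and Psat1 (0.52) downstream of PERK. Heat shock genes were led by Hspe1 (0.46), Hspd1 (0.41) and Hspa8 (0.37), and immediate early genes by Klf6 (-0.49), Jund (-0.43) and Ier3 (0.39). In the stem gate the median of the 27 folding genes was -0.02 and in the granule gate 0.20.

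The ERSE search gives a group that the member list did not use, but that shares genes with the pathway lists above. The motif stood in the window of 31 genes other than members, and 11 of them were tested between the gates. In the granule gate, where 70.2% of all genes were called and 32.1% were higher, 6 were higher, namely the lectin chaperones Calr (1.69 ± 0.11) and Canx (0.55 ± 0.07), the co-chaperone Dnajc3 (0.56 ± 0.11), the ligase Syvn1 (0.64 ± 0.14), the oxidase Ero1lb (0.34 ± 0.11) and Hnrnpa3 (0.57 ± 0.06). Adcy3 (-0.52), Acacb (-0.90) and Xlr3b (-0.47) were lower, and Alg12 and Pan2 were not called. Calr, Canx, Dnajc3 and Ero1lb were already counted among the ER folding genes above, and Syvn1 among the degradation genes. Outside those lists Hnrnpa3 was the only gene called higher, beside the lower Adcy3, Acacb and Xlr3b. All 11 are named, with their values already known. Sdf2l1, Pdia4 and Xbp1, without these letters in the window searched, were higher as well.

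Barcodes over the mitochondrial limit, which the cell filter removes, show how the members stand where RNA quality differs. Against kept cells of the same library 7 members were lower and none higher (edgeR, 60.3% of 13066 genes called, 32.7% lower and 27.6% higher). Sdf2l1 stood at 25.5, 65.1 and 183 CPM (lowest, median and highest) in kept cells and at 3.43, 14.8 and 75.2 CPM in these barcodes (-2.06 ± 0.30). Creld2 (-1.35 ± 0.17), Manf (-1.16 ± 0.17), Xbp1 (-0.87 ± 0.13) and Pdia6 (-0.72 ± 0.14) were lower too, as were Ddit3 (-0.44 ± 0.17) and Hsp90b1 (-0.37 ± 0.15) with adjusted p of 0.038 and 0.0465. Hspa5 was not called (0.08 ± 0.12), at 476 CPM against 486 CPM in the median library, nor were Pdia4 and Dnajb9. In the list B libraries Hsp90b1 was higher over the limit than in kept cells, at 308 against 250 CPM in KO3 and 235 against 195 CPM in WT4. So was Pdia4, at 144 against 69.5 CPM in KO3 and 124 against 54.1 CPM in WT4. Both genes were lower over the limit in every list A library. KO3 had only 48 such barcodes, with 0 CPM of Ddit3.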

How the data were processed

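For 7 libraries the authors' deposited values are UMI counts, 1 matrix of genes by barcodes each; Cell Ranger 7.0.0, Seurat 4.4.0 and mm10 are named in the submitters' processing notes, and the kit is a 3′ kit per the labels' protocols. Whether counting used strand is not given in the sources used here. Exons of Manf, Hsp90b1, Pdia4, Pdia6, Ddit3 and Dnajb9 overlap other gene models on the same or the opposite strand. Ddit3 has 2 entries in the feature lists; the second held 0 UMIs and the first, with 4821, was used. Barcodes with at least 1000 UMIs, 500 genes and at most 10% mitochondrial UMIs were kept. Doublets were not called. Cells meeting gates of 2 lineages entered no state, apart from the gate orders given above. Raw counts were summed per library, or per library and gate (20 or more cells), and tested with edgeR 4.0.16 (TMM, filterByExpr, quasi-likelihood F test, robust, two-sided) in R 4.3.3, with Benjamini-Hochberg adjustment over all genes tested and a threshold of 0.05. The label fits carry the barcode list as covariate, the state fits the library as block. DESeq2 1.42.0 was an alternative, beside others on filters, depth, gates and single libraries. The edgeR procedure was tested on simulated data.

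Named genes are the 10 members; per pathway list the 3 with the smallest p by label and the 3 with the smallest p in the granule against the stem gate; and the 5 most like Hspa5, Xbp1 and Ddit3. The members, lists and tests were chosen with earlier results of these data known. All 10 members passed the low-count filter in every fit. The comparison among G2/M cells, the Flt3 gate as reference and the split by phase were chosen after seeing the data.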

Additional observations from a re-analysis of the deposited data

Results flagged for a closer look

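In 60 sets of 4 wild-type-labelled libraries (the 10 members in the LSK sums and in 5 gates), 4 had a library far from the other three; chance flags about 1 in 20. Ddit3 was highest in WT4 in the stem gate (30.7 CPM beside 11.1 to 14.3 CPM; gap of 0.834 of the range) and in the Flt3 gate (24.9 CPM beside 10.6 to 12.4 CPM; 0.871). WT4 is the only wild-type-labelled library of barcode list B. Xbp1 was lowest in WT3 in the granule gate (29.9 CPM beside 53.9 to 57.5 CPM; 0.869), where that library has 32 cells. Pdia6 was lowest in WT3 in the megakaryocyte gate (111 CPM beside 177 to 189 CPM; 0.844).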

How the results depend on the processing

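The label call depends on the processing. The number of genes called by label in the LSK sums, 162 with the barcode list as covariate, was 0 without it (697 at an unadjusted p under 0.05), 362 in list A alone, 1 with a replicate block in place of the list, 856 with DESeq2, 547 without gene filter, 96 in cells thinned to 3000 UMIs, 34 without the myeloid, dendritic and mature lymphoid gates, and 16 (without WT3) to 349 (without KO3) when 1 library was left out. Members called by label, 0 in edgeR, were 7 with DESeq2, 1 without gene filter and 0 to 1 with 1 library left out. Ddit3 (-0.03 by label) turned to 0.0053 without covariate, 0.080 in list A, 0.36 with the replicate block, 0.0034 without a mitochondrial limit, 0.10 without the 3 kinds of gate, and -0.15 to 0.094 with 1 library left out. Dnajb9 (0.02) turned to -0.00019 in thinned cells and lay at -0.067 to 0.11 with 1 library left out. Same-numbered libraries deviated together for numbers 1 (r = 0.60) and 2 (0.81) but not 3 (-0.44), where the barcode lists differ, and the labels do not say what a number shares, so they were not paired. KO1 and KO2 correlated best with their own number, KO3 with WT4.

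Members called between states, 14 over 4 gates, were 28 in fits of 2 states alone, 29 with 1 marker more, 23 without gene filter and 11 to 23 with 1 library left out, highest without KO1. The share of all genes called moved too. In the Flt3, granule, lymphoid and megakaryocyte gates it was 25.6%, 70.2%, 35.8% and 17.3% in the main fit. In fits of 2 states it was 39.5%, 64.1%, 37.4% and 25.5%, and with 1 marker more 38.4%, 68.7%, 40.3% and 29.9%. Without gene filter it was 14%, 39.4%, 19.1% and 8.6%, and without KO1 27.3%, 65.4%, 37.5% and 18%. Members with a called difference of label effects, 0, were 2 without gene filter and 0 to 4 with 1 library left out. All of these calls were in the granule gate, where 0.24% of genes were called without gene filter. Without KO3 and without WT4, the fits with 4 members, 0.683% and 0.728% were. The counts for barcodes over the mitochondrial limit stayed within 5 to 8 of 10 over the settings run, beside 35.9% (no gene filter) to 62.3% (without KO1) of genes. In the granule gate against the stem gate, Dnajb9 turned from -0.49 to 0.039 among G2/M cells alone. The cause of these changes was not tested. Depth limits Ddit3 most: it had 129 UMIs in WT2 over all kept cells.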
